A study of Mus musculus with 9 samples.

Results

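The RNA of 9 nuclear receptors of the liver and of 1 coactivator was followed through 3 mouse models with different amounts of Cpr, which is NADPH-cytochrome P450 reductase and hands electrons to the microsomal P450s. The genes were Nr1i3 (CAR), Nr1i2 (PXR), Rxra, Ppara, Hnf4a, Nr5a2 (LRH-1), Nr1h3 (LXR-alpha), Esrra, Thrb and Ppargc1a (PGC-1alpha). They were chosen by name, with earlier results of these data known. Every probe set annotated to them was taken: 22 probe sets of 10 genes, out of 22626 probe sets and 12393 named genes. Each receptor was set beside the genes known as its targets in the same livers.

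All animals were 2-month-old males on a mixed C57BL/6 and 129/Sv background, with 8 or 9 mice in each model and no treatment given in the labels. Cpr-lox was the control. By their names, liver-Cpr-null mice lack the enzyme in the liver and Cpr-low mice have little of it. The labels do not give the promoter that drives the liver deletion. Total liver RNA was combined into 3 pools per model, each hybridized to 1 Affymetrix MOE430A array, a chip on which a set of short probes reports each transcript. The labels do not say whether 2 pools can hold RNA of the same mouse, and the p-values cover only differences from pool to pool. In whole liver, fewer cells of a type and less RNA per cell cannot be told apart.

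Nuclear receptors are transcription factors whose activity is set largely by what binds them. CAR and PXR sense foreign chemicals and bile acids and switch on P450s, transferases and transporters; PPAR-alpha senses fatty acids and drives their oxidation; LXR-alpha senses oxysterols. All of these act as pairs with RXR. HNF4A, LRH-1 and ERR-alpha act in the adult liver without a classical hormone, and PGC-1alpha binds several receptors and raises their output. Because ligands, shuttling into the nucleus and partner proteins control these factors, the level of a receptor's RNA is only one of the things that set its activity.

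Changes of receptor RNA were small in fold: no tested receptor probe set differed by more than 1.44-fold between any 2 models. By rank several were not small: in liver-Cpr-null the changes of Nr1i2, Esrra, Nr1i3 and Hnf4a were larger than those of 83.5%, 87.8%, 91.1% and 95.9% of all tested genes, while those of Thrb, Rxra and Nr1h3 were larger than 19.1% to 47.7%. Every change that passed the test was a fall in liver-Cpr-null. Hnf4a fell in liver-Cpr-null on 1 of its 4 probe sets, and Nr5a2 on 1 of its 3 tested probe sets. No receptor probe set passed in Cpr-low. Of 226 tested genes known as targets, 39 rose and 32 fell in liver-Cpr-null (31.4% called, against 6.67% of all tested genes), and 30 rose and 38 fell in Cpr-low (30.1%, against 5.28%). With arrays scaled to a common median these counts were 37 and 15, and 18 and 29. The target lists, too, were chosen with earlier results of these data known, so the shares called in them are no independent result. The lists differed: the median absolute log2 change in liver-Cpr-null was 0.77 for CAR and PXR targets but 0.14 for HNF4A targets and 0.09 for those of ERR-alpha and PGC-1alpha, beside 0.09 for all genes.

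Signals below were scaled to a common trimmed mean per array, and each is in arbitrary units of its own probe set, so levels of different probe sets are not compared. Changes are log2 fold changes of (signal + 16) with their SE, which understates the changes of dim probe sets. They come from 1 limma fit over all 9 arrays, and a probe set was called at a Benjamini-Hochberg adjusted p under 0.05 over the 13575 brightest probe sets. Of the 22 receptor probe sets, 15 of 8 genes were bright enough to be tested. The 7 others, at a mean scaled signal below about 128, were the single probe set of Ppara, 1 of Nr5a2 and all 5 of Ppargc1a. Against Cpr-lox, 2 of the 15 were called in liver-Cpr-null, where 6.68% of all tested probe sets were called. In Cpr-low 0 of 15 were called, where 5.27% of all were; 2 of the 15, both lower, had an unadjusted p under 0.05. Between liver-Cpr-null and Cpr-low 1 of 15 was called, against 8.29% of all. The counts called over all 22 with no brightness filter were also 2, 0 and 1.

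**Figure D1:**
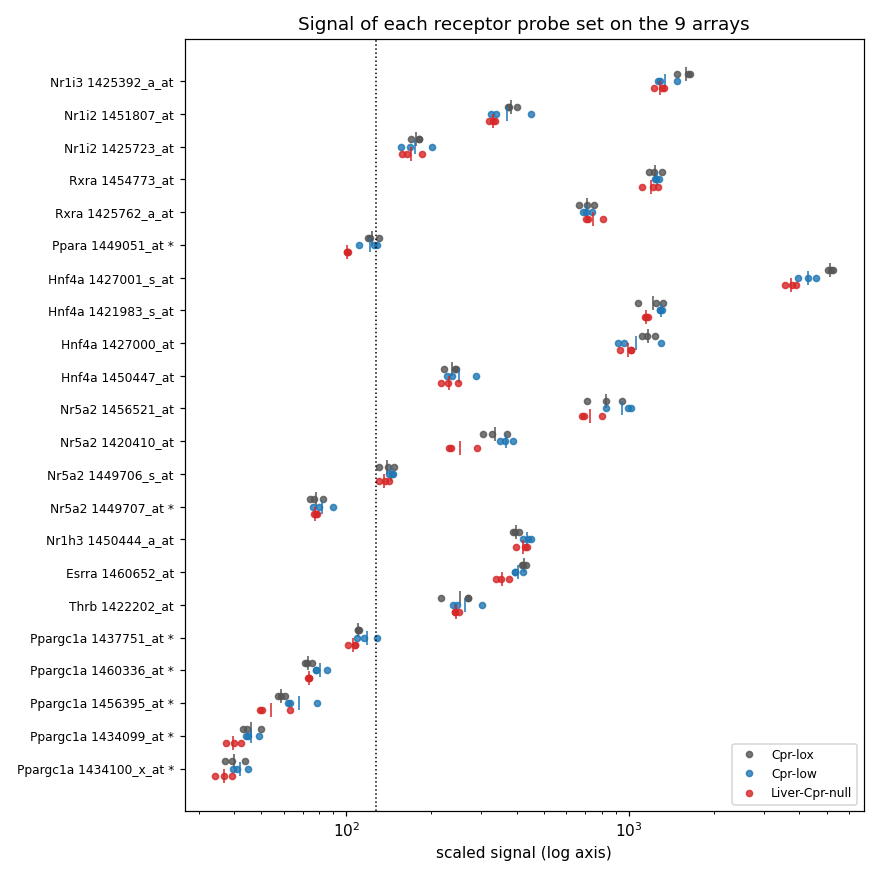
Scaled signal (log axis) of the 22 receptor probe sets on each of the 9 arrays, with a point per pool and a short vertical line at each model's mean; a star marks probe sets below the brightness filter (dotted line). Only on the Hnf4a probe set 1427001_s_at, at 3572 to 5252, do the 3 models separate completely.

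The livers and arrays differed in some further ways. Trimmed mean deposited signals of the arrays were 349.3 to 384.6, and pools of a model correlated at 0.982 to 0.995. By the headers, hybridization of the 3 Cpr-lox arrays and of Cpr-low pool 1 began together, and that of the 5 other arrays began 1.70 to 3.22 hours later under the next date, on the same station and chip lot. A fit with the date as a block therefore sets Cpr-lox against the mutants through Cpr-low pool 1 alone. The 3 Cpr-lox arrays were scanned under the first date and all 6 mutant arrays under the second, so the scan date and a difference from Cpr-lox cannot be told apart. Liver-Cpr-null pools 1 and 3 carried another solution lot than the 7 other arrays, and a fit with the lot as a block, chosen after seeing the data, reads liver-Cpr-null from pool 2 alone. In that fit fewer target genes were called in liver-Cpr-null, among them fewer targets of PPAR-alpha, the thyroid hormone receptor, and ERR-alpha and PGC-1alpha. With the model read from 1 pool, a loss in these lists cannot be told apart from a general loss of precision. Shares of all probe sets called with the date or the lot as a block are not given here. Counts of a list in those fits, here and below, thus stand without such a share. Summed signals of 14 hepatocyte markers were 232635 to 236387 in liver-Cpr-null, below the 253531 to 260694 of Cpr-lox and the 250635 to 256502 of Cpr-low. Those of 15 Kupffer cell (liver macrophage) markers were 11874 to 15343 in liver-Cpr-null, above 9022 to 9547 in Cpr-lox and 8305 to 9147 in Cpr-low. Of the 15, 10 rose in liver-Cpr-null, where 3.41% of all tested genes did. The hepatocyte markers include Apoa1 and Tat, which are also among the HNF4A targets called below. That marker sum is thus not separate from the target counts. The ratio of the 3′ to the 5′ actin control probes is a sign of RNA integrity or labelling. It was 1.62 to 1.99 in liver-Cpr-null and 1.17 to 1.43 on the other arrays. That of Gapdh was 2.34 to 2.48 and 2.36 to 2.79, and that of the transferrin receptor 1.08 to 1.16 and 1.05 to 1.15, both overlapping. The marker sums and the actin ratio move with liver-Cpr-null, as do the falls of Hnf4a and Nr5a2 below. Their part in those results, and that of the solution lot, was not tested.

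Hnf4a encodes a master regulator of hepatocyte identity, lipoprotein and bile acid genes. On probe set 1427001_s_at the scaled signals of pools 1, 2 and 3 were 5039.6, 5252 and 5178 in Cpr-lox, 3973, 4589 and 4310.2 in Cpr-low and 3889, 3783 and 3572 in liver-Cpr-null. The control arrays were all highest and the liver-Cpr-null arrays all lowest, with Cpr-low between them and no overlap of any 2 models. The means were 5157 ± 108, 4291 ± 308 and 3748 ± 161 (SD, n = 3). In liver-Cpr-null the signal fell to 0.727 of control, a log2 fold change of -0.46 ± 0.07, adjusted p = 0.00203, larger than the change of 95.9% of tested genes. Under every alternative tried it was called, with adjusted p from 0.00153 to 0.0496, the highest with the solution lot as a block. With the date as a block the change was -0.62 (adjusted p = 0.0231). In Cpr-low the log2 fold change was -0.27 ± 0.07 with an adjusted p of 0.0502, just above the threshold, and the alternatives gave 0.0238 to 0.169. The step from Cpr-low to liver-Cpr-null, -0.19 ± 0.07, was not called (adjusted p = 0.116; -0.25 and 0.103 within the second date).

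The other 3 Hnf4a probe sets did not show the fall at this size. On 1421983_s_at the pools read 1079, 1246 and 1315 in Cpr-lox, 1309, 1286 and 1287 in Cpr-low and 1167, 1137 and 1148 in liver-Cpr-null, so that control and liver-Cpr-null arrays overlapped. Its log2 fold change in liver-Cpr-null was -0.07 ± 0.08, adjusted p = 0.725, and in Cpr-low it was 0.10 ± 0.08. Probe set 1427000_at read 1108, 1155 and 1240.5 in Cpr-lox, 916, 959 and 1295 in Cpr-low and 1016, 933 and 1018 in liver-Cpr-null; its control and liver-Cpr-null arrays did not overlap, but the change of -0.24 ± 0.12 was not called (adjusted p = 0.312). The dimmest, 1450447_at, changed by -0.03 ± 0.09 (adjusted p = 0.909). Within an array, the log2 difference between 1427001_s_at and 1421983_s_at shifted by -0.39 from Cpr-lox to liver-Cpr-null without overlap. The exact permutation p was 0.1, two-sided, the smallest that 3 pools against 3 allow. Against 1427000_at and 1450447_at the shifts were -0.22 and -0.43, also without overlap and with the same p. The annotation derives 1427001_s_at and 1427000_at from the same deposited transcript sequence, and 1421983_s_at and 1450447_at from another; which exons each set of probes covers was not examined here.

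Hnf4a is transcribed from separate promoters, and probe sets can read their products unequally. The RefSeq table for GRCm38.p6 holds 2 start sites of the gene on the plus strand of chromosome 2, 40298 bases apart. The 250 bases before each are shown 5′ to 3′ because the probe sets of the gene disagree. They were searched on both strands for AGGTCA, the half-site that most of these receptors bind, and CAAAGTCCA, a core of the HNF4A site; neither motif contains the other. Neither window holds a match. Matches, in capitals where there are any, are letters in a window and not shown binding sites.
Hnf4a chr2:163506607-163506856: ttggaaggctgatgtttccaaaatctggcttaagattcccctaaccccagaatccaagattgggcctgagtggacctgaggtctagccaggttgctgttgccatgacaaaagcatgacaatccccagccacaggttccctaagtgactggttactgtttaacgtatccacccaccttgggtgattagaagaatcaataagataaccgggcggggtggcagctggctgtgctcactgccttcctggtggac
Hnf4a chr2:163546905-163547154: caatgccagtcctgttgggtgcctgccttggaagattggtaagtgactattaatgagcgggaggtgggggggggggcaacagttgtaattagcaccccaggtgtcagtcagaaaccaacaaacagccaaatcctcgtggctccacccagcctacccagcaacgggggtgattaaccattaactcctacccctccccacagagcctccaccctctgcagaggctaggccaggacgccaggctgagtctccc

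Of 50 tested genes known as targets of HNF4A, 3 rose and 7 fell in liver-Cpr-null, which is 20% called against 6.67% of all tested genes (3.41% higher and 3.26% lower). Their median log2 fold change was -0.09, beside -0.04 for all genes. In Cpr-low, where Hnf4a just missed the threshold, 4 rose and 3 fell (14% against 5.28%, of which 2.12% higher and 3.17% lower) and the median was 0.04, as it was for all genes. With the deposited scaling the counts were 3 and 4 in liver-Cpr-null and 1 and 3 in Cpr-low, and with the date as a block 1 and 5, and 4 and 8. Target genes did not go one way: Apoa4, an apolipoprotein of triglyceride-rich particles, fell in liver-Cpr-null from 19331 ± 2225 to 7178 ± 1037 (-1.43 ± 0.14, adjusted p = 7.71e-05). Apom, which carries sphingosine-1-phosphate on HDL, fell from 4186 ± 53.4 to 2415 ± 165 (-0.79 ± 0.08, adjusted p = 0.000105). Apoa1, the main HDL protein, fell too (-0.22 ± 0.05, adjusted p = 0.0246). Its scaled signals, 24581 to 30468, were close to the highest deposited signals of the arrays, 29334 to 31783. A change may be understated there, so its size is not compared with those of Apoa4 and Apom. Cyp8b1, the sterol 12-alpha-hydroxylase that sets the share of cholic acid, rose from 5883 ± 109 to 9156 ± 316 (0.64 ± 0.08, adjusted p = 0.000588) and in Cpr-low stood at 5064 ± 589 (-0.22 ± 0.08, adjusted p = 0.157). The gluconeogenic gene Pck1 was not called in either model (-0.32 ± 0.10, adjusted p = 0.0731 in liver-Cpr-null).

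Cyp8b1 went up in the livers in which Hnf4a went down, and its promoter is shown for that reason. Its window, the 250 bases upstream on the minus strand of chromosome 9 (chr9:121916306-121916555, GRCm38.p6), holds CAAAGTCCA 67 bases before the start. That sequence occurs in 0.384% of the 32851 windows of this length in the table.
Cyp8b1 promoter: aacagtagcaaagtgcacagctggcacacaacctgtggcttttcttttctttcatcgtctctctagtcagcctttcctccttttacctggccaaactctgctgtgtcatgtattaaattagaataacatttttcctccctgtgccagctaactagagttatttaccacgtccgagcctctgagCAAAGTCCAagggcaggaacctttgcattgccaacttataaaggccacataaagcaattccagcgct

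Nr5a2 encodes LRH-1, which works with HNF4A on bile acid synthesis genes and is held back by the small receptor SHP (Nr0b2). On probe set 1420410_at the scaled signals of pools 1, 2 and 3 were 304, 328 and 372 in Cpr-lox, 364, 349 and 388 in Cpr-low and 235, 231 and 289 in liver-Cpr-null. Every liver-Cpr-null array lay below every other array, while Cpr-lox and Cpr-low overlapped. Against Cpr-lox the liver-Cpr-null signal was 0.763-fold (-0.39 ± 0.10, adjusted p = 0.0321). Against Cpr-low it was 0.696-fold (-0.52 ± 0.10, adjusted p = 0.00671). The first of these was lost (adjusted p 0.0503 to 0.251) with the deposited, the median or the quantile scaling, with the date or the solution lot as a block, and without Cpr-lox pool 2 or 3, Cpr-low pool 2 or liver-Cpr-null pool 1 or 2. The second was called under each of the 21 alternatives that tested this probe set (highest adjusted p = 0.0485), which leaves out the fit with only the brightest probe set of a gene, and within the second date was -0.53 (adjusted p = 0.0353). Cpr-low stood at 0.13 ± 0.10 against control (adjusted p = 0.511).

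The brighter Nr5a2 probe set 1456521_at had the same order of models with wider spread. It read 829.7, 710.2 and 947 in Cpr-lox, 829.8, 1018 and 988 in Cpr-low and 691, 684 and 802 in liver-Cpr-null. All liver-Cpr-null arrays were below all Cpr-low arrays, and Cpr-lox overlapped both. The change from Cpr-low to liver-Cpr-null was -0.37 ± 0.12, adjusted p = 0.0696, and with the date as a block -0.46 (adjusted p = 0.0467). From Cpr-lox to liver-Cpr-null it was -0.18 ± 0.12, adjusted p = 0.475. Probe set 1449706_s_at lay between 130 and 147 on all arrays and changed by -0.03 ± 0.07, and 1449707_at, at 74.1 to 89.9, was too dim to test.

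The table holds 2 start sites of Nr5a2 on the minus strand of chromosome 1, and the windows before them are shown because only part of the gene's probe sets moved. AGGTCA stands 64 bases before the first start, which it does in 14.024% of all windows, and the second window holds neither motif.
Nr5a2 chr1:136960449-136960698: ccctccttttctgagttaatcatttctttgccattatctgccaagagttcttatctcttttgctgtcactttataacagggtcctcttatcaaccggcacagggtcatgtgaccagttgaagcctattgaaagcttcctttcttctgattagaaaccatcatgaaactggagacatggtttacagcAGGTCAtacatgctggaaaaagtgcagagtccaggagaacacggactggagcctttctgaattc
Nr5a2 chr1:136953631-136953880: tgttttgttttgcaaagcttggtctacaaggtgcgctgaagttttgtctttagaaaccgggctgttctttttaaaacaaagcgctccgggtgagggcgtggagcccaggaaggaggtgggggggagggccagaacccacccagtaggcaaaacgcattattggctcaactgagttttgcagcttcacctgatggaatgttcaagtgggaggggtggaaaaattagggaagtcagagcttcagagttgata

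Of the 16 tested genes known as LRH-1 targets 2 rose and 8 fell in liver-Cpr-null. This is 62.5% called, against 6.67% of all tested genes, and the median change was -0.27. In Cpr-low, where Nr5a2 was not lower, 1 rose and 4 fell (31.25%, against 5.28% of all) with a median of -0.20. With the date as a block, 1 rose and 2 fell in liver-Cpr-null (median -0.43). Cyp7a1, which makes the rate-limiting step from cholesterol to bile acids, rose in both models, from 901 ± 227 to 1757 ± 206 in Cpr-low (0.98 ± 0.16, adjusted p = 0.00336) and to 4360.4 ± 522 in liver-Cpr-null (2.28 ± 0.16, adjusted p = 5.96e-06). Nr0b2 itself, a bile acid-responsive repressor, read 1115, 819 and 1216 in Cpr-lox, 959, 985 and 773 in Cpr-low and 507, 323 and 591 in liver-Cpr-null. Its liver-Cpr-null arrays were all below the rest, a change of -1.15 ± 0.20, adjusted p = 0.00431, while Cpr-low overlapped control (-0.20 ± 0.20, adjusted p = 0.63). Abcg5, part of the sterol exporter into bile, fell in liver-Cpr-null (-0.98 ± 0.13, adjusted p = 0.000813) and changed by -0.26 ± 0.13 in Cpr-low (adjusted p = 0.322). The fall of Abcg5 and Nr0b2 was larger in liver-Cpr-null than in Cpr-low when the models were set against each other (-0.72 ± 0.13, adjusted p = 0.0055, and -0.95 ± 0.20, adjusted p = 0.0121). Of the 17 LRH-1 targets on the array, 5 are also in the HNF4A list and 6 in the LXR list, so these counts are not separate.

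Nr1i3 encodes CAR, the receptor through which phenobarbital-like compounds induce Cyp2b10. Its scaled signals in pools 1, 2 and 3 were 1621, 1483 and 1648 in Cpr-lox, 1473, 1284 and 1263 in Cpr-low and 1325, 1304 and 1223 in liver-Cpr-null. All 6 arrays of the mutant models were below all 3 control arrays, and the mutants overlapped each other. Neither fall was called: liver-Cpr-null stood at 0.813 of control (-0.30 ± 0.08, adjusted p = 0.0546) and Cpr-low at 0.846 (-0.24 ± 0.08, adjusted p = 0.139). The 95% intervals of the ratio were 0.717 to 0.922 and 0.746 to 0.960. Cpr-low pool 1, hybridized with the controls, read 1473 and lay nearest to them, and with the date as a block the change in liver-Cpr-null was -0.09 (adjusted p = 0.727). Over the alternatives the adjusted p in liver-Cpr-null ran from 0.0267 to 0.727.

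Nr1i2 encodes PXR, the broad sensor that induces Cyp3a genes. Probe set 1451807_at read 375, 372 and 401 in Cpr-lox, 449.7, 325 and 338 in Cpr-low and 321, 332 and 336 in liver-Cpr-null. The liver-Cpr-null arrays were below the controls, but Cpr-low spread from below to above them. The changes were -0.21 ± 0.10, adjusted p = 0.332 in liver-Cpr-null and -0.06 ± 0.10, adjusted p = 0.796 in Cpr-low, and with the date as a block the first was 0.22 (adjusted p = 0.304). The second probe set, 1425723_at, overlapped in all pairs of models, at 156 to 200 units (-0.06 ± 0.09 and -0.02 ± 0.09). Ratios to control from 0.741 to 1.01 in liver-Cpr-null and 0.821 to 1.12 in Cpr-low lay within the 95% intervals of 1451807_at.

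Most tested targets of these 2 receptors rose. Of 35 tested genes known as CAR or PXR targets, 26 rose and 0 fell in liver-Cpr-null by limma (2 were lower at an unadjusted p under 0.05), 74.3% called against 6.67% of all genes, with a median log2 fold change of 0.77. In Cpr-low 19 rose and 2 fell (60%, against 5.28% of all genes), and the median was 0.44. The falls were those of Cyp2c39, a P450 that rose in liver-Cpr-null (-0.97 ± 0.13, adjusted p = 0.0011 in Cpr-low, and 0.51 ± 0.13, adjusted p = 0.0391), and Cbr1, a carbonyl reductase (-0.48 ± 0.13, adjusted p = 0.0469). On each array, the median difference of the list from control was 0.38 to 0.48 in the Cpr-low pools and 0.70 to 0.81 in the liver-Cpr-null pools, while Nr1i3 was at or below -0.10 on all 6. Cyp2b10 rose from 593 ± 275 in Cpr-lox to 3400.1 ± 370.3 in Cpr-low (2.61 ± 0.28, adjusted p = 0.000257) and 9624 ± 1505 in liver-Cpr-null (4.10 ± 0.28, adjusted p = 5.14e-06). Gstm3, a glutathione transferase, rose by 2.27 ± 0.12 and 4.27 ± 0.12, in the same order. Cyp2c55 rose by 1.37 ± 0.19 and 3.93 ± 0.19, and Gstm2 by 1.07 ± 0.10 and 2.32 ± 0.10. Cyp3a11, the classical PXR target and already very abundant, rose by 0.31 ± 0.05, adjusted p = 0.00404, and 0.36 ± 0.05, adjusted p = 0.00124. Set against each other, 17 targets were higher and 1 lower in liver-Cpr-null than in Cpr-low, where 8.03% of all genes were called (4.42% higher and 3.62% lower). With the date as a block 11 rose in liver-Cpr-null and 15 in Cpr-low, with medians of 0.66 and 0.38.

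**Figure D2:**
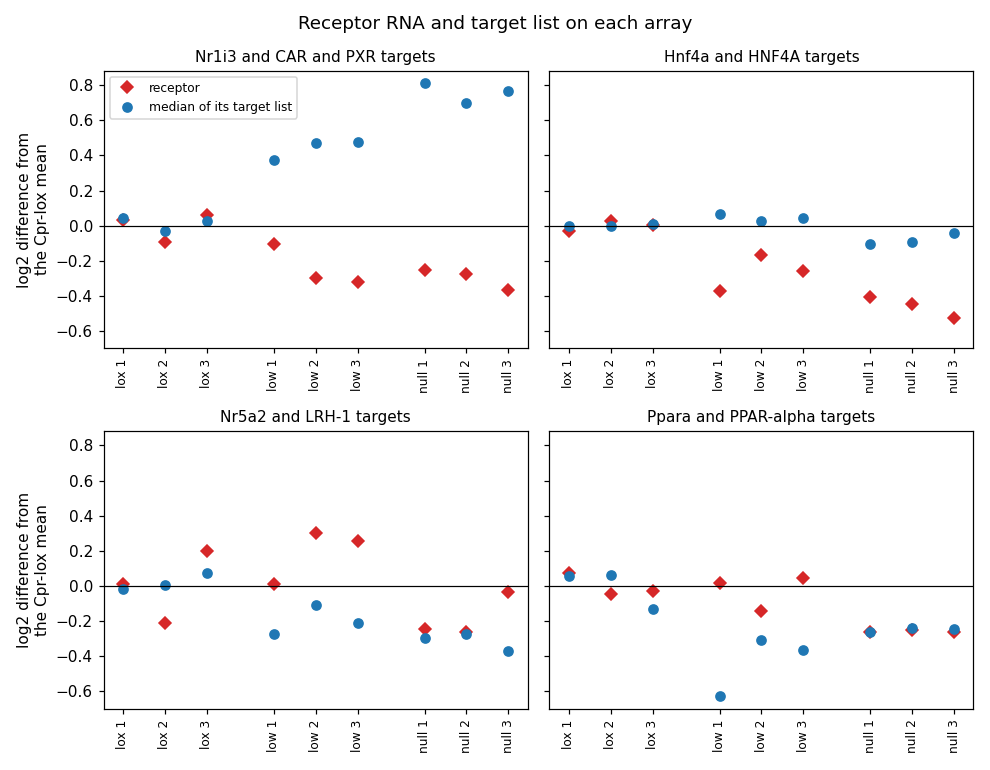
Log2 difference from the Cpr-lox mean on each of the 9 arrays, for a receptor (diamond, brightest probe set) and the median of its target list (circle), in 4 pairs of receptor and list. CAR and PXR targets lie at 0.38 to 0.48 in Cpr-low and 0.70 to 0.81 in liver-Cpr-null with Nr1i3 below control, and PPAR-alpha targets are low in Cpr-low while Ppara is not.

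Ppara encodes the fatty acid sensor of the fasting liver, and its 1 probe set was below the brightness filter. Its scaled signals were 131, 119 and 121 in Cpr-lox, 125, 110.5 and 128 in Cpr-low and 100.4, 101 and 100.2 in liver-Cpr-null. The 3 liver-Cpr-null arrays were nearly identical and below the other 6, and Cpr-low overlapped control. In a fit without the filter, the change was -0.26 ± 0.07 in liver-Cpr-null (adjusted p = 0.0528) and -0.03 ± 0.07 in Cpr-low (adjusted p = 0.876). At this brightness the fold change depends on an unknown background step.

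Of 55 tested PPAR-alpha targets 3 rose and 17 fell in liver-Cpr-null (36.4%, against 6.67% of all tested genes, median -0.26). In Cpr-low 0 rose and 28 fell by limma (50.9%, against 5.28% of all, median -0.45), and 1 was higher at an unadjusted p under 0.05. With median scaling 2 rose and 8 fell in liver-Cpr-null (18.2%, against 4.70% of all tested probe sets). By the same scaling 0 rose and 24 fell in Cpr-low (43.6%, against 3.68%). The larger count of falls was thus in the model in which the Ppara signal overlapped control. Set against each other, 14 targets were higher and 3 lower in liver-Cpr-null than in Cpr-low (30.9% called). Of all tested genes 8.03% were called there (4.42% higher and 3.62% lower). With median scaling the counts were 13 and 0, where those over all tested probe sets were 794 higher and 177 lower. Ehhadh, the peroxisomal bifunctional enzyme, fell from 8705 ± 2196 to 2129 ± 575 in Cpr-low (-2.03 ± 0.20, adjusted p = 0.000154) and 3509 ± 351 in liver-Cpr-null (-1.28 ± 0.20, adjusted p = 0.00201). Vnn1, a pantetheinase, fell in both (-2.44 ± 0.24 and -0.91 ± 0.24, in the same order) and was higher in liver-Cpr-null than in Cpr-low (1.54 ± 0.24, adjusted p = 0.00283). Acot1, an acyl-CoA thioesterase, fell in both (-2.30 ± 0.20 and -0.87 ± 0.20), with the same order between the models (1.43 ± 0.20, adjusted p = 0.00136). Cpt1a, which admits fatty acids to mitochondria, also fell in both (-0.90 ± 0.10 and -0.63 ± 0.10). Cd36, a fatty acid transporter and 1 of the 3 that rose in liver-Cpr-null, read 112 ± 6.75 in Cpr-lox and 307 ± 41.7 in liver-Cpr-null; it passed the brightness filter only through liver-Cpr-null, so its count in the list is no independent result. The same holds for Pdk4, another of the 3. Cd36 is also made by macrophages, whose markers were higher in the same livers, and their part was not tested. Cpr-low pool 1 had the lowest list median, -0.63, against -0.31 and -0.36 in the others, and with the date as a block 36 targets fell in Cpr-low and 13 in liver-Cpr-null.

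Rxra encodes the shared partner of CAR, PXR, PPAR-alpha, LXR and the thyroid hormone receptors. Probe set 1454773_at read 1308, 1178 and 1227 in Cpr-lox, 1274, 1243 and 1237 in Cpr-low and 1219, 1265 and 1113 in liver-Cpr-null. The 3 models overlapped throughout, and so they did on 1425762_a_at, at 664 to 810. The changes of 1454773_at were -0.05 ± 0.08, adjusted p = 0.819 in liver-Cpr-null and 0.02 ± 0.08, adjusted p = 0.925 in Cpr-low. Its 95% intervals held the ratio to control between 0.862 and 1.09 in the first and between 0.901 and 1.14 in the second.

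Nr1h3 encodes LXR-alpha, which turns on sterol export and fatty acid synthesis. It read 409, 394 and 388 in Cpr-lox, 451, 439 and 421 in Cpr-low and 437, 429 and 397 in liver-Cpr-null. The Cpr-low arrays were all above control, by 0.13 ± 0.07, adjusted p = 0.356, and liver-Cpr-null overlapped both (0.08 ± 0.07, adjusted p = 0.623). Of 25 tested LXR targets 6 rose and 4 fell in liver-Cpr-null (40%, against 6.67% of all tested genes). In Cpr-low 7 rose and 2 fell (36%, against 5.28% of all), or 4 and 2 with the deposited scaling. The medians were 0.03 and 0.04. With the date as a block 2 rose and 0 fell in liver-Cpr-null (8%). In Cpr-low, Scd1, the stearoyl-CoA desaturase, rose by 1.80 ± 0.31, adjusted p = 0.00473, and Fasn, fatty acid synthase, by 1.08 ± 0.20, adjusted p = 0.008. Elovl5, a fatty acid elongase, fell in both models (-0.93 ± 0.11, adjusted p = 0.000393 in Cpr-low, and -0.45 ± 0.11, adjusted p = 0.0241 in liver-Cpr-null). Srebf1, the lipogenic transcription factor, rose in Cpr-low to 1628 ± 499 from 857 ± 272 (0.91 ± 0.22, adjusted p = 0.0348) and was not called in liver-Cpr-null (-0.29 ± 0.22, adjusted p = 0.573), where it was lower than in Cpr-low (-1.20 ± 0.22, adjusted p = 0.0066). Scd1 also rose in liver-Cpr-null (1.43 ± 0.31, adjusted p = 0.0153).

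Esrra encodes ERR-alpha, a regulator of mitochondrial genes. Its pools read 432, 419.8 and 423 in Cpr-lox, 422, 396 and 394 in Cpr-low and 339, 351 and 376 in liver-Cpr-null. The liver-Cpr-null arrays were below all others, and the change of -0.25 ± 0.07 had an adjusted p of 0.0517, just above the threshold (0.0331 to 0.475 over the alternatives). In Cpr-low the change was -0.07 ± 0.07, adjusted p = 0.615. Its partner Ppargc1a was dim on all 5 probe sets, with scaled signals from 34.4 to 129. On the brightest, 1437751_at, the pools read 109.6, 110.3 and 111 in Cpr-lox, 116, 109 and 129 in Cpr-low and 107, 107 and 101 in liver-Cpr-null. In a fit without the filter the 5 probe sets gave adjusted p of 0.169 to 0.975 in liver-Cpr-null and 0.378 to 0.970 in Cpr-low. Between liver-Cpr-null and Cpr-low all 5 were lower in the former, by log2 fold changes of -0.11 to -0.26. Their adjusted p was 0.0882 to 0.227 and, for 3 of them, the unadjusted p was under 0.05. In this comparison 67.8% of all tested probe sets were also lower, and without the filter the median over all was -0.08. The annotation derives 1434099_at and 1434100_x_at from the same deposited transcript sequence, so the 5 are not separate readings.

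Of the 56 tested targets of ERR-alpha and PGC-1alpha, 4 rose and 3 fell in liver-Cpr-null (12.5% called, against 6.67% of all genes; 3 and 1 with median scaling). In Cpr-low 1 rose and 1 fell (3.57%, against 5.28%; 0 and 1 with median scaling), but 1 and 7 with the date as a block (14.3%). The medians were 0.01 in both. Atp5b, a subunit of ATP synthase, rose by 0.32 ± 0.07, adjusted p = 0.0149 in liver-Cpr-null and by 0.28 ± 0.07 in Cpr-low. Cycs, cytochrome c, was not called (-0.06 ± 0.09, adjusted p = 0.803 and -0.13 ± 0.09, adjusted p = 0.504). Pdk4, a kinase that restrains glucose oxidation, rose in liver-Cpr-null (0.61 ± 0.16, adjusted p = 0.0466). It read 138 ± 40.3 in Cpr-lox, 89.0 ± 18.1 in Cpr-low and 214 ± 24.0 in liver-Cpr-null. Over the Cpr-lox and Cpr-low arrays together its mean lay below the brightness filter. Its count here and in the PPAR-alpha and thyroid hormone receptor lists is thus no independent result.

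Thrb encodes the main thyroid hormone receptor of the liver. It read 269.5, 270.1 and 216 in Cpr-lox, 303, 239 and 247 in Cpr-low and 242, 243 and 249.9 in liver-Cpr-null, and all pairs of models overlapped. The changes were -0.03 ± 0.10, adjusted p = 0.915 in liver-Cpr-null and 0.06 ± 0.10, adjusted p = 0.783 in Cpr-low, with ratios from 0.840 to 1.14 and 0.894 to 1.21 inside the 95% intervals. Of 23 tested targets 2 rose and 6 fell in liver-Cpr-null (34.8%, against 6.67% of all tested genes). In Cpr-low 2 rose and 5 fell (30.4%, against 5.28% of all), or 2 and 3 with median scaling. The medians were -0.10 and -0.19. The target most often used to read the hormone, Dio1, which activates thyroid hormone, was not called (-0.19 ± 0.22, adjusted p = 0.727 and -0.21 ± 0.22, adjusted p = 0.643). Thrsp, a lipogenic thyroid hormone target, spread widely, at 569, 502 and 1463 in Cpr-lox and 4996, 1042 and 3214 in Cpr-low, and was not called (1.75 ± 0.53, adjusted p = 0.0821). Gpd2, the mitochondrial glycerol phosphate dehydrogenase, fell in both models (-0.90 ± 0.11, adjusted p = 0.000496 in Cpr-low, and -0.71 ± 0.11, adjusted p = 0.00198 in liver-Cpr-null).

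**Figure D3:**
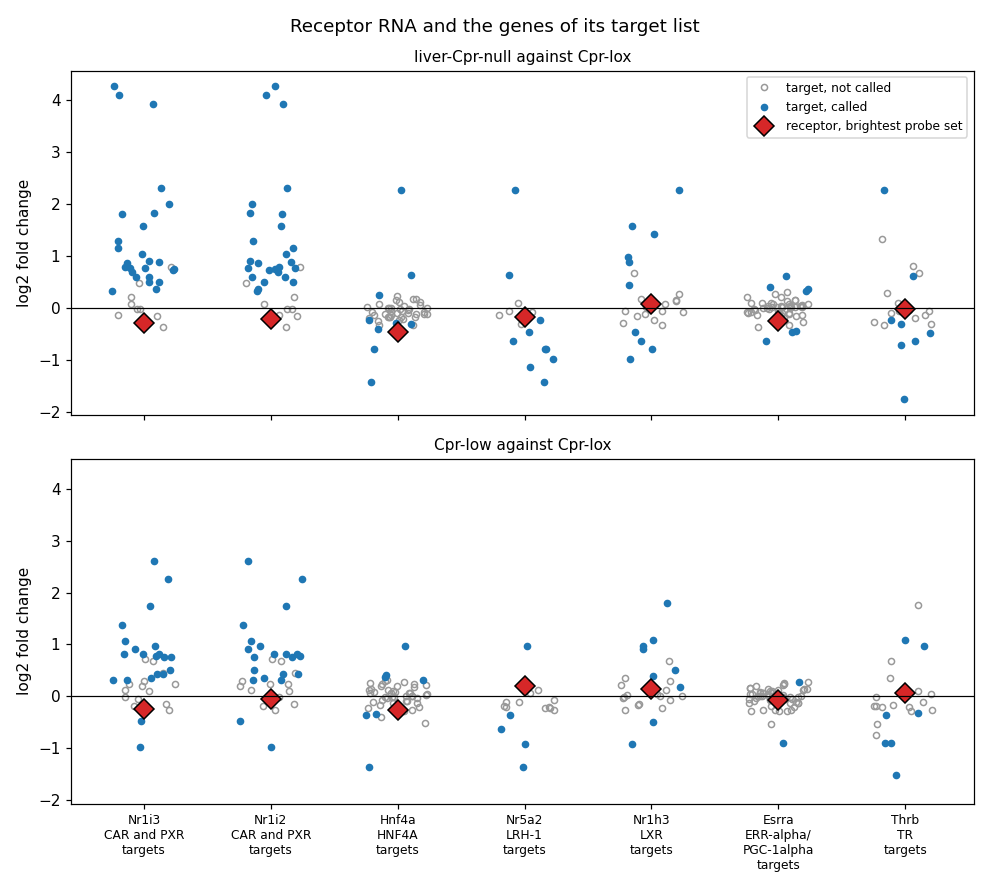
Log2 fold change against Cpr-lox in liver-Cpr-null (top) and Cpr-low (bottom), with a circle per tested target gene (filled where called) and a diamond for the brightest probe set of the receptor named below it; Ppara and Ppargc1a were too dim and Rxra has no list of its own. Diamonds lie between -0.46 and 0.19, while called CAR and PXR targets reach 4.27.

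Across the 15 tested receptor probe sets, 13 changes against control were below 0 in liver-Cpr-null, as were 64.04% of all tested probe sets, and 6 in Cpr-low, as were 37.3%. Of the 15, 6 and 7 changed sign under at least 1 alternative. Arrays of liver-Cpr-null and Cpr-lox did not overlap for 6 of the 15, where this held for 25.8% of all tested probe sets. For Cpr-low against Cpr-lox it was 3 of 15 (21.5% of all), and for liver-Cpr-null against Cpr-low 5 of 15 (37.1% of all). A moderated F test over the 3 models called 2 of the 15, 1427001_s_at of Hnf4a and 1420410_at of Nr5a2 (adjusted p = 0.00353 and 0.00904), where 11.8% of all probe sets were called. The 95% intervals of all 15 lay within ratios of 0.654 to 1.19 for liver-Cpr-null to control, 0.746 to 1.36 for Cpr-low to control and 0.601 to 1.18 between the mutants. Both mutant models were compared with the same 3 control arrays.

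**Figure D4:**
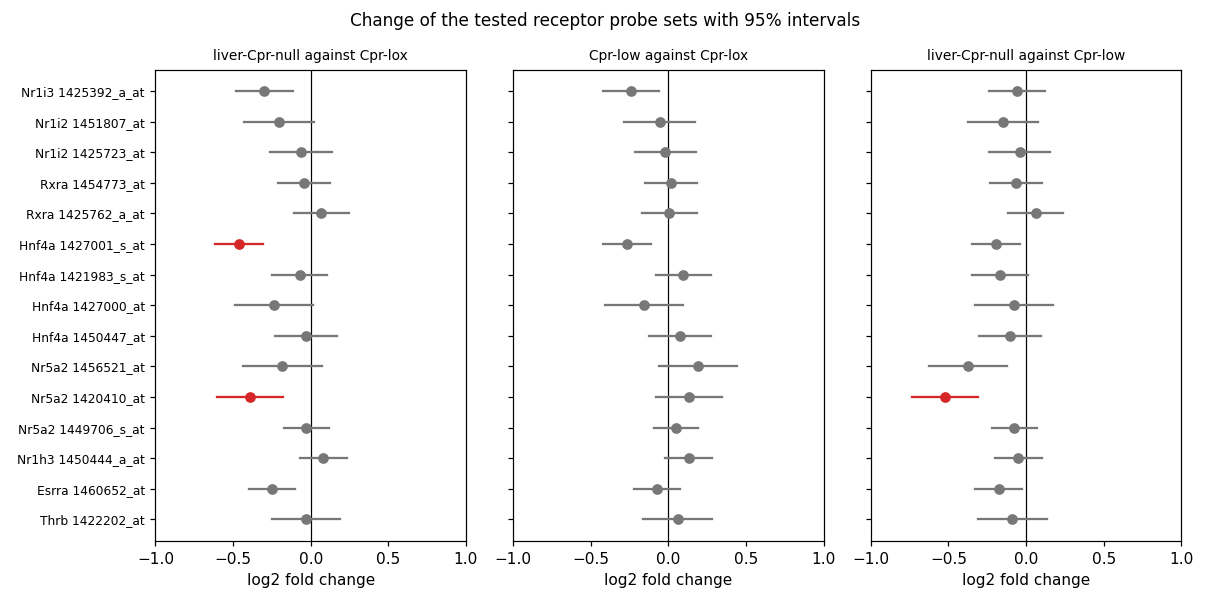
Log2 fold change of the 15 tested receptor probe sets with 95% intervals, in 3 comparisons; red marks those called at an adjusted p under 0.05. Hnf4a 1427001_s_at (-0.46) and Nr5a2 1420410_at (-0.39) are called in liver-Cpr-null against Cpr-lox, none in Cpr-low, and Nr5a2 1420410_at (-0.52) between the mutant models.

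Other receptors and coregulators were read in the same fit, in which 6.67% of all genes were called in liver-Cpr-null and 5.28% in Cpr-low. Of 11 tested genes that pair with RXR, including some of the receptors above, 1 was called in liver-Cpr-null and 0 in Cpr-low by limma (3 at an unadjusted p under 0.05 in Cpr-low). It was Pparg, the adipogenic PPAR, which rose from 283 ± 7.98 to 437 ± 55.6 (0.59 ± 0.09, adjusted p = 0.00171). Among 23 tested nuclear receptors outside the 10, 1 rose and 2 fell in liver-Cpr-null (13.04%), and 0 were called in Cpr-low by limma (4 at an unadjusted p under 0.05). The rise was again Pparg, and the falls were Nr0b2, above, and Rora, a clock-linked receptor (-0.45 ± 0.12, adjusted p = 0.041). Of 32 coregulators 2 fell in liver-Cpr-null (6.25%, near the share of all genes): Ppargc1b, the relative of Ppargc1a that is bright enough here (885 ± 114 in Cpr-lox and 648 ± 58.5 in liver-Cpr-null, -0.44 ± 0.10, adjusted p = 0.0191), and Foxo1, an insulin-controlled factor (-0.49 ± 0.13, adjusted p = 0.0371). In Cpr-low Ppargc1b changed by -0.29 ± 0.10, adjusted p = 0.134. Cited2, a coregulator that binds p300 and CBP, rose in Cpr-low (0.45 ± 0.11, adjusted p = 0.032).

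Of 34 hepatocyte transcription factors 1 rose and 6 fell in liver-Cpr-null (20.6%, against 6.67% of all tested genes). In Cpr-low 2 rose and 3 fell (14.7%, against 5.28% of all). Ahr, the dioxin receptor, rose in both models, by 1.09 ± 0.15, adjusted p = 0.00112 in liver-Cpr-null and by 0.77 ± 0.15, adjusted p = 0.0108 in Cpr-low. Dbp and Tef, clock output factors, fell in liver-Cpr-null (-1.76 ± 0.47, adjusted p = 0.0418, and -0.55 ± 0.10, adjusted p = 0.00475), and Dbp spread widely between control pools (817, 443 and 1360.4). Klf15, a fasting-linked factor, fell in liver-Cpr-null (-0.46 ± 0.10, adjusted p = 0.0158). Creb3l3, a membrane-bound factor that works with PPAR-alpha, fell in both (-0.30 ± 0.07, adjusted p = 0.0169 in liver-Cpr-null, and -0.34 ± 0.07, adjusted p = 0.0109 in Cpr-low). The other falls were Cebpg and Foxo1 in liver-Cpr-null, and Foxa3 and Xbp1 in Cpr-low, where Srebf1 was the other rise.

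The genes most like the 2 receptors called by the F test were ranked by Pearson r of log2 signal over the 9 arrays, as a description of arrays that share their models. Nearest to Hnf4a (1427001_s_at) were Vkorc1 (r = 0.978), Lonp2 (0.975) and Stat6 (0.967). For Nr5a2 the brightest probe set, 1456521_at, was used, which the F test did not call (adjusted p = 0.123). Nearest to it were Pcmtd2 (0.966), Il1rap (0.954) and Rnf185 (0.952).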

How the data were processed

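Liver RNA of 9 pools, 3 for each model, was hybridized to Affymetrix MOE430A arrays, and models were assigned from the sample titles. The authors deposited 1 intensity for each probe set and array, on a linear scale and rounded to whole numbers. Their probe summary, background correction and scaling are not given in the sources used here. Gene symbols came from GEO's platform annotation, with gene numbers checked against RefSeq names of GRCm38.p6. Of 22626 probe sets that are not controls, 20380 had 1 symbol, 691 several and 1555 none; only those with 1 were named. The receptors and all gene lists were chosen with earlier results of these data known, and the lists overlap. The gene that encodes Cpr is not reported here, so the labels were not checked with it.

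Signals were scaled to a common 2% trimmed mean, because the trimmed means of the arrays differed by 10.1%, and taken as log2(signal + 16). The upper 60% of probe sets by mean log2 signal were kept (13575 probe sets, 8878 genes), and the brightest kept probe set stood for a gene in the lists. All arrays entered 1 fit in limma 3.58.1 (R 4.3.3; two-sided eBayes tests with a trend on intensity, Benjamini-Hochberg over all kept probe sets, threshold 0.05), with a moderated F test. The number of arrays limits the precision. The fit was tested on simulated data with known changes. Alternatives were pseudocounts of 1 and 64, the deposited, median or quantile scaling, no filter or the upper 40%, no intensity trend, 1 probe set per gene, the hybridization date or the pool number as a block, fits within a date, and leaving out each pool. Hybridization date and solution lot, per the file headers, were the batches tested, the lot after seeing the data.

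Besides the receptors, the text names up to 4 called genes per target list and comparison with Cpr-lox by size of change, reference targets whatever their value, called members of the regulator lists, and the 3 genes most like each receptor called by the F test. From these, some were left out for length. Promoter windows came from RefSeq, GRCm38.p6; all 10 receptor genes had at least 1, and AGGTCA occurred in 3 of their 15 windows. Plots were made in Python 3.11.15 with matplotlib 3.10.9.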

Additional observations from a re-analysis of the deposited data

Results flagged for a closer look

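The change of Nr5a2 probe set 1420410_at against Cpr-lox differed between the models: it was -0.52 ± 0.10 lower on the log2 scale in liver-Cpr-null than in Cpr-low by limma's test of the difference (adjusted p = 0.00671), with all 3 liver-Cpr-null pools below all 3 Cpr-low pools.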

How the results depend on the processing

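The fall of Hnf4a on 1427001_s_at in liver-Cpr-null and the lower Nr5a2 signal on 1420410_at in liver-Cpr-null than in Cpr-low were called under every alternative that tested these probe sets (the fit with 1 probe set per gene leaves out 1420410_at), and no called change of a reported gene turned its direction. Counts of called receptor probe sets are small and moved by 1 or 2 with many settings. In liver-Cpr-null against Cpr-lox, 2 were called; 1 was called with the deposited, median or quantile scaling and with the hybridization date or the solution lot as a block, 4 with the upper 40% of probe sets or no intensity trend, and 1 to 4 when single pools were left out. In Cpr-low against Cpr-lox, 0 were called; 1 was with quantile normalization, the upper 40%, 1 probe set per gene or the date as a block, and 0 to 1 when single pools were left out. Between liver-Cpr-null and Cpr-low, 1 was called; 0 with 1 probe set per gene, 2 with the date as a block or within the second date, and 1 to 2 when single pools were left out. The F test called 2, but 1 with median scaling or 1 probe set per gene, and 1 to 2 when single pools were left out, with 1 without liver-Cpr-null pool 1. Target genes called in liver-Cpr-null numbered 71, 34 with the date as a block, where the comparison rests on Cpr-low pool 1, and 39 with the solution lot as a block, where it rests on liver-Cpr-null pool 2. In Cpr-low they numbered 68, and 44 to 66 when single pools were left out, with 44 without Cpr-lox pool 2. Between the models they numbered 67, and 36 to 65 when single pools were left out, with 36, 40 and 40 without liver-Cpr-null pool 1, 2 or 3, and 32 with the solution lot as a block. The lot was added as an alternative after seeing the data. Leaving out a pool leaves fewer arrays; for the other shifts the cause was not tested. The main fit did not pair pools by number. Deviations of pools with the same number correlated at -0.21 to 0.49 (7 of 9 above 0), and those with different numbers at -0.46 to 0.27. Each deviation was taken from the mean of its own model, so these ranges are not independent of each other. Why pools of the same number would be alike was not tested. With the pool number as a replicate block, 1 receptor probe set was called in Cpr-low against Cpr-lox and 2 between liver-Cpr-null and Cpr-low, and over all probe sets 1211, 1014 and 1650 in place of 907, 715 and 1125 in the 3 comparisons. Over all tested probe sets, the split of higher and lower calls moved with the scaling: 488 and 419 in liver-Cpr-null against Cpr-lox became 435 and 203 with median scaling, and 659 and 466 between liver-Cpr-null and Cpr-low became 794 and 177 (805 and 250 with the deposited scaling). In that last comparison HNF4A targets went from 3 higher and 13 lower to 3 and 3 with median scaling, LRH-1 targets from 3 and 5 to 3 and 3, and all target genes from 42 and 25 to 39 and 9. Ppara and Ppargc1a lie near the dim end of the signals, where fold changes depend on an unknown background.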
